A study of Homo sapiens with 24 samples.

Results

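Parental PC9 cells with tagged METTL7A were compared with wild-type PC9 cells by chromatin immunoprecipitation and sequencing (ChIP-seq), using a MYC-tag antibody. PC9 was derived from a human lung adenocarcinoma and needs its mutated EGFR to grow. The METTL7A cells overexpress a METTL7A-MYC-tag-FLAG fusion, the wild-type cells carry no fusion, and both were untreated. Neither the promoter of the fusion nor whether the METTL7A cells are 1 clone or a pool is given in the sources used here. No empty-vector group of parental cells was among the samples, so expressing any tagged construct and expressing METTL7A cannot be told apart here. The regions described are the 56 peaks of the METTL7A list and the 83 peaks of the wild-type list whose names carry the stem PC9_WT_MYC, 139 of the 6236 peaks of the whole series. The 1143 wild-type peaks with the stem PC9_MYC, of which 1054 rest on 2 fragments, were left out of the comparison and are used only to show how far 2 wild-type peak-calling runs differ. These are called the main run (83 peaks) and the thin run (1143 peaks) of wild type. Each group holds 2 immunoprecipitated libraries, which the labels call biological replicates, but the METTL7A list and the main wild-type run are 1 peak-calling run each. No value of either has a replicate error, no test between the groups was possible, and the intervals below cover counting error only.

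METTL7A belongs to the methyltransferase-like proteins, which carry a fold that binds the methyl donor S-adenosylmethionine. It is known as a membrane-anchored protein of the endoplasmic reticulum and lipid droplets rather than as a DNA-binding factor. An antibody against an epitope tag is meant to precipitate chromatin through the tag, and cells without the tag show what is recovered in its absence. The antibody is described in the labels as a c-MYC-tag antibody, and the epitope is a piece of the transcription factor c-MYC, which the cells may express themselves. Whether that protein was precipitated was not tested.

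The METTL7A list was the shorter one. Its 56 peaks (42.3 to 72.7, exact 95% Poisson interval) compare with 83 in the main wild-type run (66.1 to 102.9), a ratio of 0.675 with a conditional exact 95% interval of 0.472 to 0.958. The METTL7A peaks covered 16367 bp of the genome and the wild-type peaks 29134 bp. Few fragments stood behind the peaks of either list, as read back from each peak's fold and p-value. In the METTL7A list 15 peaks had 4 fragments at the summit, 13 had 5 and 16 had 6, and the median was 5.5. In the wild-type run no peak had fewer than 5, 29 had 6 and 21 had 7, and the median was 6. The commonest local background, called the floor, was 0.151 fragments in the METTL7A run and 0.211 in the wild-type run, a ratio of 0.715. At that floor a METTL7A peak was called from 4 fragments on and a wild-type peak from 5 on, which sets the lower edge of each list. A minimum of 5 fragments left 41 METTL7A and 83 wild-type peaks, and 4 peaks of each passed a −log10 q of 5. Read depth, antibody recovery and METTL7A cannot be told apart in these numbers.

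**Figure D1:**
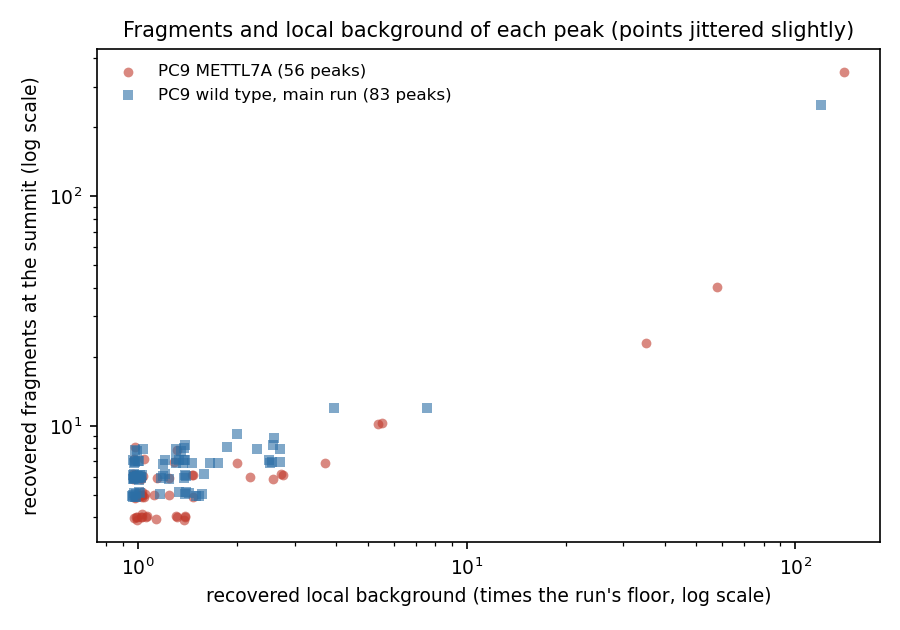
Recovered fragments at the summit against the recovered local background in multiples of the run's floor, both on log scales, for the 56 METTL7A peaks (circles) and the 83 main-run wild-type peaks (squares). Most peaks of both lists sit near 1 floor with 4 to 8 fragments, and the pair at the upper right is the 11p15.4 segment with 342 and 246 fragments.

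The lists met at 1 position. It lay in 11p15.4, the band of the beta-globin gene HBB, at 11:5246136-5247344 (GRCh37, 1-based) in METTL7A cells and at 11:5246148-5247336 in wild type, so the starts differed by 12 bp and the ends by 8 bp. It was the highest and the widest peak of both lists, 1209 bp against 1189 bp, with deposited folds of 15.6 and 9.61. It rested on 342 fragments over a background of 20.9 in METTL7A cells and on 246 over 24.7 in wild type, backgrounds that are 139 and 117 times the floors. This segment alone held 49.0% of all summit fragments of the METTL7A list and 31.5% of those of the wild-type run. The next highest fold was 7.82 in METTL7A cells and 7.43 in wild type. The shared position is 1.79% of the METTL7A list (exact 95% binomial interval 0.0452 to 9.55%) and 1.20% of the wild-type run (0.0305 to 6.53%). The count remained 1 when 50% of the shorter peak had to overlap and when peaks were widened by 1 kb or 10 kb, and the thin wild-type run shared 0 peaks with either list.

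In METTL7A cells the peaks followed genome length, while the main-run wild-type peaks lay mostly in light bands. Light bands are the chromosome segments that Giemsa stains weakly. They are on the whole rich in genes and G and C bases and replicate early, whereas dark bands are poorer in genes and richer in A and T. Of the METTL7A peaks 25 of 56, 44.6% (exact 95% binomial interval, 31.3 to 58.5%), lay in light bands, which make up 42.2% of the genome. Of the wild-type peaks 61 of 83 did, 73.5% (62.7 to 82.6%). The difference was −28.9 percentage points with a 95% interval of −45.0 to −11.2. The darkest bands held 19 METTL7A peaks, 33.9% (21.8 to 47.8%), and 8 wild-type peaks, 9.64% (4.25 to 18.1%), against 29.2% of genome length. Lengths include assembly gaps.

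A contrast in the same direction appeared at chromosome ends and on the gene-rich chromosomes, in part among the same peaks. Within 5 Mb of an end lay 4 METTL7A peaks, 7.14% (1.98 to 17.3%), and 21 wild-type peaks, 25.3% (16.4 to 36.0%), against 7.75% of genome length. The difference was −18.2 percentage points (−30.1 to −4.66). Of these end peaks 3 METTL7A and 19 wild-type ones also lay in light bands. The intervals treat peaks as independent, although wild-type peaks lay in groups of 4 in 5p15.33 and of 3 each in 16q24.3 and 20q13.33. The median distance to the nearer end was 38.8 Mb for METTL7A and 28.1 Mb for wild type. Chromosomes 16, 17, 19, 20 and 22, which are gene-rich for their length, held 6 METTL7A peaks, 10.7% (4.04 to 21.9%), and 20 wild-type peaks, 24.1% (15.38 to 34.7%), against 11.1% of length. The interval of that difference, −25.9 to 0.778 points, included 0. On 16, 17, 20 and 22 wild type stood higher, but chromosome 19 went the other way. It had 1 peak in each list, 0.935 times what its share of length gives in METTL7A and 0.631 times in wild type. Near centromere bands, within 1 Mb, lay 1 METTL7A peak in 6q12 and 2 wild-type peaks, in 20p11.1 and 2q11.2.

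The wild-type runs differed from each other in the same measures. In the thin wild-type run 44.7% of peaks lay in light bands (41.8 to 47.6%), 5.77% within 5 Mb of an end (4.49 to 7.29%) and 11.3% on the 5 gene-rich chromosomes (9.51 to 13.26%). All of these shares lie inside the METTL7A intervals and outside those of the main wild-type run. The METTL7A cells of PC9-OR, the osimertinib-resistant line, which were kept in 1 uM osimertinib, also gave 2 unlike runs. Their second run of 4870 peaks had 68.9% in light bands (67.5 to 70.2%) and 33.0% near ends (31.7 to 34.3%). Their first run of 67 peaks, 66 of them on standard chromosomes, had 34.8% (23.5 to 47.6%) and 13.6% (6.43 to 24.3%). By light-band share the 5 runs did not sort by METTL7A or by cell line. On that share the main and the thin wild-type run stood about as far apart as METTL7A and the main wild-type run. The thin run is unlike the main run in depth of evidence. Its floor was 0.0131 fragments and its median 2 fragments, against 0.211 and 6 in the main run. What part of the difference goes with METTL7A and what part with the run was not tested.

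**Figure D2:**
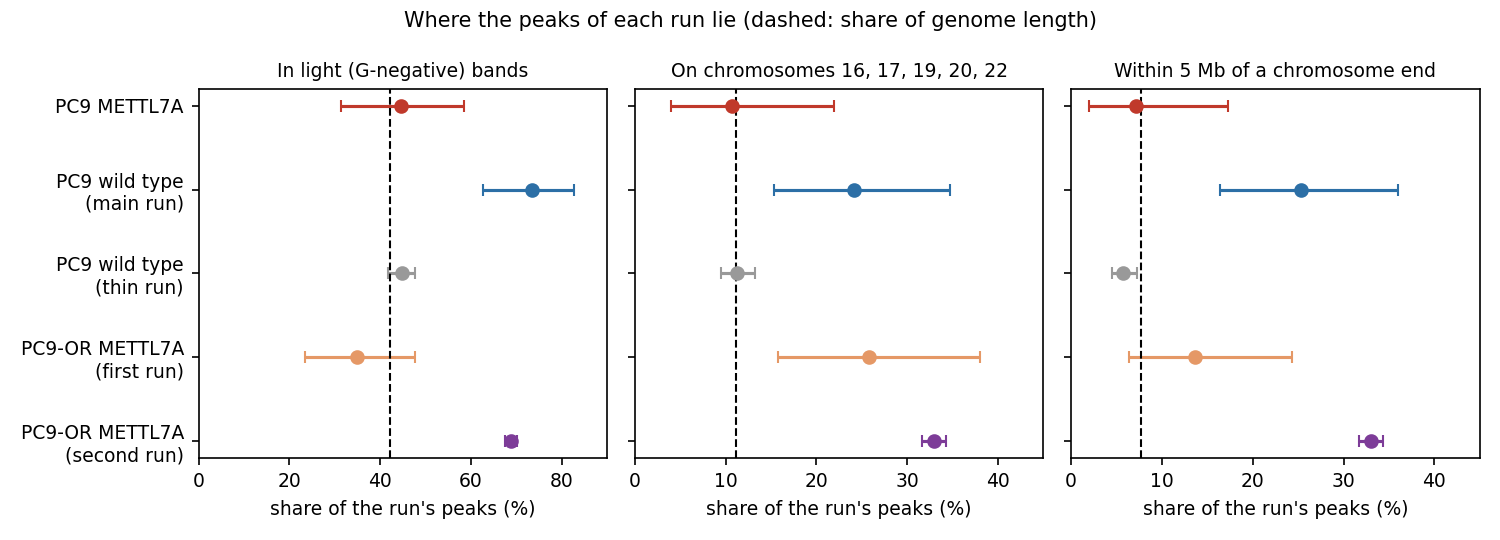
Share of each run's peaks in light bands, on chromosomes 16, 17, 19, 20 and 22, and within 5 Mb of a chromosome end, in percent, with exact 95% binomial intervals and the share of genome length as a dashed line. PC9 METTL7A at 44.6% in light bands sits beside the thin wild-type run at 44.7%, and the main wild-type run at 73.5% beside the second PC9-OR METTL7A run at 68.9%.

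By chromosome, METTL7A peaks stood highest above their length on 7, 22, 12 and 2. There were 7 on chromosome 7, which is 2.43 times what its share of length gives, 2 on chromosome 22 (2.15 times), 5 on chromosome 12 (2.06 times) and 9 on chromosome 2 (2.05 times). Main-run wild-type peaks stood highest on 22 with 5 (3.63 times), 5 with 13 (2.68 times), 16 with 6 (2.48 times) and 20 with 4 (2.37 times). On chromosome 12 wild type had 1 peak, 0.279 times the number by length. METTL7A had none on 9, 20, 21, X and Y, and wild type had none on 6, 15, 21 and Y. These are small numbers. The thin wild-type run stayed closer to length on the same chromosomes, at 1.46 times on 7, 1.21 on 12, 1.12 on 2, 0.633 on 22, 1.39 on 5, 0.989 on 16 and 1.33 on 20.

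**Figure D3:**
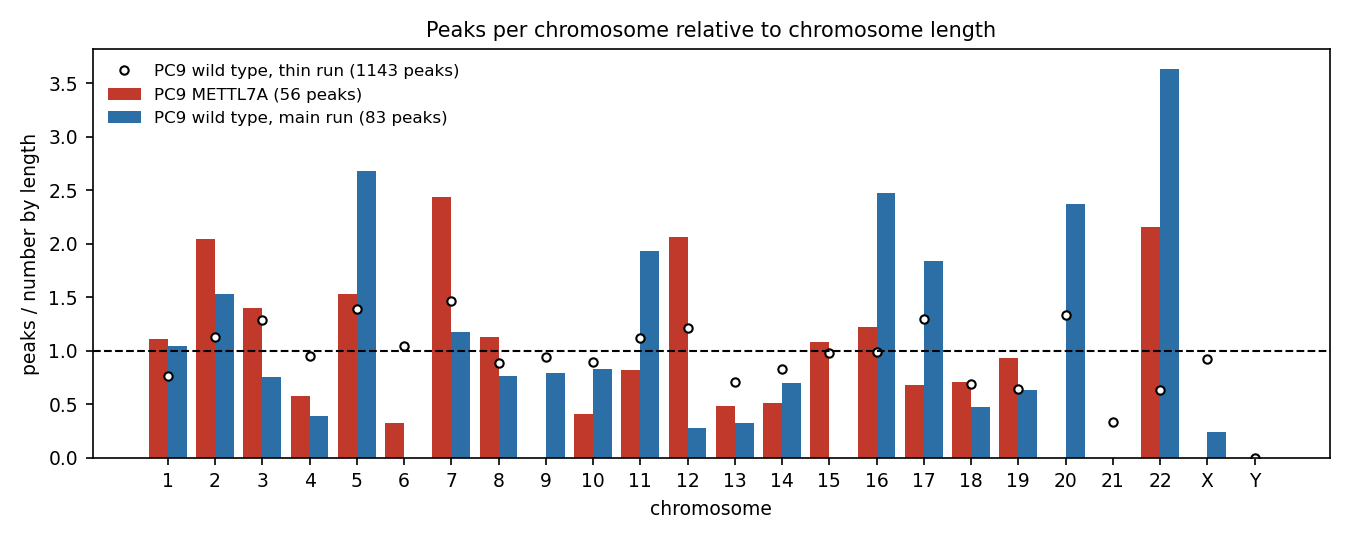
Number of peaks on each chromosome divided by the number that chromosome length gives, for METTL7A (red bars), the main wild-type run (blue bars) and the thin wild-type run (open circles), with a dashed line at 1. METTL7A reaches 2.43 on chromosome 7 and wild type 3.63 on chromosome 22, while the thin run is at 1.46 and 0.633 there.

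Besides 11p15.4, the METTL7A peaks with the highest folds were single positions in mostly dark bands. The first was 12:82183818-82184072 in the dark band 12q21.31, with 8 fragments over a background at the floor, and 160.4 kb away the same band held 12:82344460-82344708 with 5 fragments. It was followed by 5:158646414-158646724 in the light band 5q33.3, with a fold of 7.53 and 8 fragments. Next came 3:152663988-152664256 in 3q25.2 with 6.95, 5:168253771-168254057 in 5q34 with 6.92 and 15:80461701-80462025 in 15q25.1 with 6.70, each on 7 fragments. The peak 19:42907692-42907951 in 19q13.2 had 6.19, also on 7. Below these, 7 peaks shared a fold of 6.08, with 6 fragments over a background at the floor. They lay in 2q37.1, 4q13.1, 7p14.1, 7q21.11, 8q21.2, 8q24.23 and 12q21.32.

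The leading wild-type folds apart from that segment belonged to 5:34193080-34193481 (band 5p13.2) and 18:8856982-8857346 (band 18p11.22), each with a fold of 7.43 on 8 fragments. The peak 2:239049538-239050138 in 2q37.3 followed with 7.42, also on 8. The peaks 5:28077863-28078194 in 5p14.1 and 8:107282199-107282513 in 8q23.1 had folds of 7.02 and 7.01 on 12 and 9 fragments. Single peaks in 5p15.31, 5p13.1, 5q35.1 and 17q25.1 tied at 7.01 on 8. Short-arm positions of chromosome 5 thus gave 4 of the 10 highest wild-type folds and none of the METTL7A ones. Over all peaks that arm held 9 of the 83 wild-type and only 2 of the 56 METTL7A peaks, so few were there to rank.

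The light-band share of METTL7A peaks was also read by fragment number. Of the METTL7A peaks with 4 or 5 fragments 13 of 28 lay there, 46.4% (27.5 to 66.1%), of those with 6 fragments 8 of 16, and of those with 7 or more 4 of 12, 33.3% (9.93 to 65.1%). In wild type the shares were 12 of 17, 26 of 29 and 23 of 37. At 7 or more fragments wild type was thus at 62.2% (44.8 to 77.5%), and its interval overlaps that of METTL7A.

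Raised local background marked a few METTL7A regions. The floor itself was the background of 24 METTL7A peaks, 42.9%, and of 38 wild-type peaks, 45.8%, and 11 and 17 peaks lay above 1.5 floors, 19.6% and 20.5%. The highest values after 11p15.4 belonged to a METTL7A pair at 16:46388308-46388713 and 16:46389795-46390133 in 16q11.2, a variable heterochromatin band beside the centromere. The pair had 23 and 41 fragments over backgrounds of 35.5 and 57.3 floors, so its folds were only 3.79 and 4.36, and the nearest main-run wild-type peak lay 16763 kb away. A METTL7A peak in 2p15 at 2:62478154-62478407 and one in 7p11.2 at 7:54792691-54792957 each had 10 fragments over 5.46 floors. In wild type the highest after 11p15.4 was 17:41400325-41401036 in 17q21.31, with 12 fragments over 7.82 floors.

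METTL7A peaks were narrower. Their median width was 259 bp (95% interval of the median 254 to 276) with quartiles of 246 and 289 bp, against 314 bp (307 to 331) with quartiles of 290 and 362 bp in wild type. The medians stood in a ratio of 0.825. Of the METTL7A peaks 44 of 56 were under 300 bp, against 27 of 83 in wild type, and 1 against 7 reached 500 bp. The narrowest peak measured 236 bp in METTL7A and 259 bp in wild type, so the wild-type run began where the METTL7A run had its median. Other runs also had their own lower limit, 231 bp in the thin wild-type run and 227 and 314 bp in the PC9-OR METTL7A runs, with medians of 284, 255 and 399 bp. The part of this limit in the width difference was not tested. Relative to the narrowest peak of the run, the median was 1.10 times in METTL7A, 1.21 in the main and 1.23 in the thin wild-type run. In the first and second PC9-OR METTL7A runs it was 1.12 and 1.27 times, so the runs did not sort by METTL7A on this ratio.

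**Figure D4:**
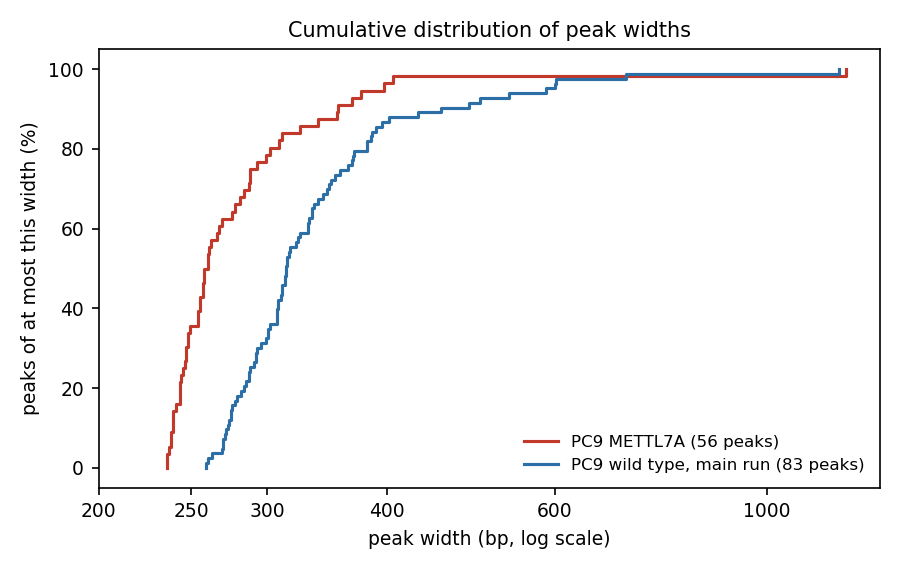
Percentage of peaks at or below each width in bp, on a log scale, for the METTL7A list (red) and the main wild-type run (blue). The METTL7A curve starts at 236 bp and reaches its median at 259 bp, where the wild-type curve begins, and both end in the 11p15.4 segment of 1209 and 1189 bp.

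The widest peaks after 11p15.4 were, in METTL7A cells, the 16q11.2 peak of 406 bp, 17:73800357-73800754 in 17q25.1 with 398 bp, 2:63308949-63309324 in 2p15 with 376 bp and 5:31350091-31350458 in 5p13.3 with 368 bp. In wild type they were the 17q21.31 peak of 712 bp, the 2q37.3 peak of 601 bp, 17:79409720-79410319 in 17q25.3 with 600 bp and 7:1506653-1507239 in 7p22.3 with 587 bp. Median widths in light and in other bands were 258 and 260 bp in METTL7A, and 314 and 314.5 bp in wild type.

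METTL7A peaks also stood more alone. The median distance to the next peak of the same list was 12.2 Mb for METTL7A and 3.83 Mb for wild type, which has more peaks. Within 1 Mb of another peak of their own list lay 6 METTL7A peaks, 10.7% (4.04 to 21.9%), namely 1 pair each in 2p15, 12q21.31 and 16q11.2. Of the wild-type peaks 24 did, 28.9% (19.5 to 39.9%). These intervals overlap, and the longer wild-type list has more peaks to lie near. The part of list length in these shares was not tested. The wild-type groups of 3 or more were 4 peaks within 660 kb in 5p15.33, 3 within 834 kb in 16q24.3 and 3 within 111 kb in 20q13.33. METTL7A had no group of 3. The METTL7A peaks fell in 53 bands and the wild-type peaks in 63 of the 862 bands, and 7 bands held a peak of each list: 2q37.1, 2q37.3, 3q13.2, 7p11.2, 11p15.4, 17q25.1 and 22q12.2.

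Within 1 Mb of a main-run wild-type peak lay 7 METTL7A peaks, 12.5% of the list (5.18 to 24.1%). In the thin wild-type run that share was 5.60% (4.34 to 7.09%), and the intervals overlap. Whether either share exceeds what genome length gives was not tested. Within 5 Mb lay 15 METTL7A peaks, and the 11p15.4 segment was the only one within 100 kb. The nearest after it was in 3q13.2, where 3:111810695-111810972 with 6 fragments lay 115 kb from the wild-type peak 3:111695901-111696179 with 5. In 7p11.2 the METTL7A peak lay between wild-type peaks at 7:54612325-54612615 and 7:55433981-55434376, at 180 kb and 641 kb. The METTL7A peak 2:239258500-239258740 in 2q37.3 lay between wild-type peaks at 208 kb and 224 kb, and 22:30286312-30286568 in 22q12.2 between peaks at 664 kb and 739 kb. The remaining pairs were 474 kb apart at the border of 5q34 and 5q35.1, and 884 kb apart in 17q25.1. All of these had 4 to 10 fragments. With the thin wild-type run added, 39 METTL7A peaks had a wild-type peak within 1 Mb, among 1226 wild-type peaks then compared. The part of that larger number in the count was not tested.

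The bands of 20 genes of receptor signalling, growth control and lung adenocarcinoma, assigned from textbook knowledge, were searched in both lists. They span 2.46% of the genome and held 4 METTL7A peaks, 7.14% of the list, and 7 wild-type peaks, 8.43%. In the thin wild-type run the share was 3.24%. These are small numbers without an interval, and 4 of the 7 wild-type peaks were the 1 group in 5p15.33. Whether the shares exceed that of length was not tested. Of receptors and their ligands, the band 7p11.2 of EGFR, the receptor kinase PC9 depends on, held 1 METTL7A and 2 wild-type peaks. The band 7q21.11 of HGF, the ligand of the receptor MET, and the band 19q13.2 of AXL, a receptor kinase linked to drug tolerance, held 1 METTL7A peak each and no wild-type peak. Of nuclear regulators, the band 11q22.1 of YAP1, a co-activator of the Hippo pathway, held the METTL7A peak 11:99803075-99803321 with 5 fragments. The band 5p15.33 of TERT, which copies the telomere repeat in telomerase, had 4 wild-type peaks and no METTL7A peak. The band 11q13.3 of CCND1 (cyclin D1), which drives entry into S phase, held 1 wild-type peak and no METTL7A peak. The METTL7A band 12q13.12 held no peak of either list, and neither did those of MET, the receptor whose amplification is a known route to resistance, and MYC. The bands of ERBB2, ERBB3, IGF1R, ROS1, CRKL, SRC, AURKA, NKX2-1, CDK6, MDM2 and BCL2L1 were also without a peak of either list. A band spans 1.2 to 8.9 Mb, so these counts describe regions and not the genes, and a GRCh37 gene annotation was not used here.

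The regions around METTL7A peaks also held fewer peaks of the resistant METTL7A cells than those around main-run wild-type peaks. Counting second-run PC9-OR METTL7A peaks within 1 Mb, the median was 1 for METTL7A peaks (95% interval 1 to 2), 7 for main-run wild-type peaks (6 to 12) and 1 for thin-run wild-type peaks. None of them lay that near to 19 METTL7A peaks, 33.9% (21.8 to 47.8%), to 9 wild-type peaks, 10.8% (5.08 to 19.6%), and to 39.9% of the thin run (37.0 to 42.8%). At least 10 lay near 4 METTL7A peaks, 7.14%, near 35 main-run wild-type peaks, 42.2%, and near 10.7% of the thin run (8.94 to 12.6%). The METTL7A peaks with most were those in 2q37.3 with 35, 7p11.2 with 29, 18q23 with 19 and 22q13.32 with 15. The wild-type peaks with most lay in 5p15.33, with 120 to 141. On this measure the METTL7A peaks and the untagged thin wild-type run had the same median. Besides 11p15.4, 1 METTL7A position coincided with a PC9-OR peak, 8:86556508-86556862 in 8q21.2, with 6 fragments and a fold of 6.08, inside the second-run peak 8:86556362-86556915 with a fold of 10.4. Of the main-run wild-type peaks 13 did, 11p15.4 included, each on a peak of that same second run. The others lay in 2q37.3, 4q35.2, 5p13.1, 5p13.2, 5p15.33, 10q11.21, 11q13.3, 16q24.1, 16q24.3 and 17q21.31. With 11p15.4 counted in both, the shares were 3.57% of METTL7A (0.436 to 12.3%) and 15.7% of main-run wild-type peaks (8.61 to 25.3%). These intervals overlap. In the thin wild-type run the share was 0.175% (0.0212 to 0.631%). The 11p15.4 segment also coincided with a peak of PC9-OR wild-type cells, at 11:5246133-5247357.

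**Figure D5:**
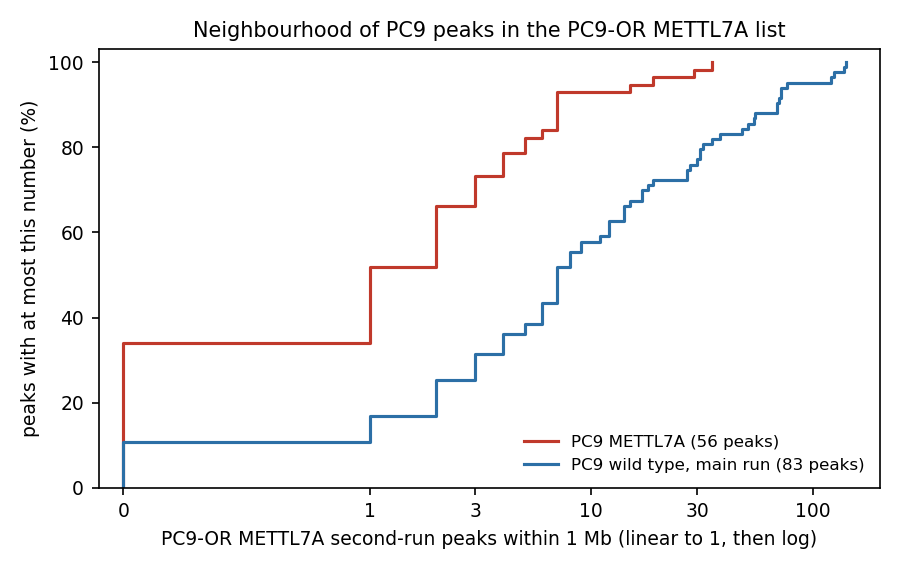
Percentage of METTL7A (red) and main-run wild-type (blue) peaks with at most the given number of second-run PC9-OR METTL7A peaks within 1 Mb, on an axis linear to 1 and logarithmic above. A count of 0 is reached by 33.9% of METTL7A and 10.8% of wild-type peaks, and the curves end at 35 and 141.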

How the data were processed

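The labels' protocols give 20 ug of chromatin per immunoprecipitation, 2.5 ng of product per library and 20000000 paired-end reads per library. Per the submitters' processing notes the build was GRCh37, and the tools named are MACS2 2.2.7.1, bedtools 2.30, Bowtie2 2.4.2, deepTools 3.5.1, SAMtools 1.16, FastQC and Trimmomatic. For their settings and the peak-calling control the sources used here give nothing. The deposited lists, 1 per group, hold for each peak a position, a score, a fold enrichment (a ratio to local background), a −log10 p and a −log10 q of the authors' peak caller. Folds of different runs are given side by side in places but were not read as levels. The exception is 1 alternative in which the median deposited fold took the place of fragments. It differed by −0.567 (−0.759 to −0.0616), METTL7A minus main-run wild type. The p-values of different runs were not compared. A peak-calling run was read from the peak names, and which library it stands for is not given.

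Fragments n and background b were recovered as the whole n for which the fold equals (n + 1) / (b + 1) and the p-value equals the Poisson upper tail. All 139 peaks had 1 solution, and recovery was tested on data simulated from these same formulas. That test checks the inversion and cannot show that the deposited values follow the formulas. Bands came from circlize 0.4.16 (GRCh37), and a peak belongs to the band of its midpoint. Python 3.11.15 and scipy 1.17.1 computed counts, medians, and exact Poisson and binomial (Clopper-Pearson) 95% intervals. Intervals of a difference combine those of its parts (Newcombe's way). Overlap means 1 bp. Named were the 10 highest folds and 5 widest peaks per list, peaks shared with other lists or within 100 kb, pairs within 1 Mb, groups of 3, and peaks in the listed genes' bands. Other positions named in the text were chosen after their values were seen. Members, lists and tests were chosen with earlier results of these data known. The gene table at hand is on GRCh38.p14, so no gene feature or peak sequence was assigned.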

Additional observations from a re-analysis of the deposited data

Results flagged for a closer look

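The METTL7A to wild-type ratio of peak numbers ran in opposite directions in the lines. It was 0.675 in PC9 against the main wild-type run (0.049 against the thin run) and at least 7.44 in PC9-OR, the lowest over pairs of METTL7A and wild-type runs there, where the METTL7A runs held 67 and 4870 peaks and the wild-type runs 9 and 1. The difference between the lines was not tested.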

How the results depend on the processing

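No paired analysis was possible because the peak lists carry no value per library, and leaving out a replicate was not possible for the same reason. With the thin wild-type run added, the peak number ratio was 0.0457, the width difference −27.5 bp, the light-band difference −2.01 points, that of the 5 gene-rich chromosomes −1.44 points, the difference at chromosome ends turned to 0.0466 points, the difference in median fragments from −0.5 to 3.5, and 39 METTL7A peaks had a wild-type neighbour within 1 Mb. With a −log10 q of at least 5, which left 4 peaks a list and a ratio of 1.0, the width difference was −176.5 bp, the light-band difference 0, that of the 5 gene-rich chromosomes turned to 25 points, the fragment difference to 16.5, and 1 neighbour remained. With at least 5 fragments the ratio was 0.494, the fragment difference 0, and the centromere difference turned from −0.624 to 0.0294 points. Within 5 Mb of a centromere band that difference was −6.07 points. With a background of at most 1.5 floors, a limit chosen after seeing the data, 0 positions were shared, because the 11p15.4 segment lies above it. METTL7A peaks near a wild-type peak numbered 1 within 100 kb and 15 within 5 Mb. Apart from these constructions, which compare other peaks or fewer, the causes were not tested. Apart from 11p15.4 and the 16q11.2 pair, no position had more than 12 fragments, which limits what any single one shows.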
